A study of Mus musculus with 8 samples.

Results

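The 10 genes described here are a core set of the integrated stress response, the program that the transcription factor ATF4 directs: Atf4, Atf3, Ddit3, Ppp1r15a, Trib3, Eif4ebp1, Sesn2, Asns, Psat1 and Chac1. They were chosen by symbol, with every probe that the array annotation gives to them, which came to 14 of 25697 probes and 10 of 16593 named genes on the array. The samples were total RNA from 4 Cic-L-/- and 4 wildtype mouse livers, all C57BL and 18 days old, each hybridised to its own single-colour Illumina bead array. Capicua, the product of Cic, represses transcription, and Cic-L denotes the longer isoform. Neither the making of the allele nor the liver cells it acts in could be taken from the labels. The series asks what part capicua plays in metabolism. The labels do not say that the numbered samples are separate animals, so the p-values reflect only how far these 8 arrays scatter, and part of that scatter can be technical.

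In the integrated stress response, kinases that sense amino acid shortage, unfolded protein in the endoplasmic reticulum, haem shortage or viral RNA phosphorylate the initiation factor eIF2. General translation slows, while translation of the Atf4 mRNA increases, so that ATF4 activity depends on protein made as well as on mRNA. ATF4 then pairs with C/EBP proteins and raises genes for amino acid synthesis and transport, for redox balance and for feedback. In liver the pathway is known for its reaction to amino acid deprivation and to endoplasmic reticulum stress.

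ATF4 and its C/EBP partners bind a composite element whose core is TGATGNAA, where N is any base. Promoter windows of 300 bases, from 250 bases before to 50 bases after the annotated start, were taken from RefSeq (GRCm38.p6), which held 9 of the 10 genes (Psat1 with 2 windows). This and the motifs below were searched on both strands. It occurred in the windows of 4 of these 9 genes, against 2.41% of 8056 windows of genes tested on the array and 3.97% of all 32851 windows. The first is a share of genes, tested or not, and the others are shares of windows. The genes were chosen as part of the program that ATF4 directs, so a higher share can follow from that choice. The 4 windows with a match are shown. They belong to Asns and Chac1, the genes whose levels changed, and to Atf3 and Trib3, which were too dim to test. Each is printed on the gene's own strand with the match in capitals.
Asns: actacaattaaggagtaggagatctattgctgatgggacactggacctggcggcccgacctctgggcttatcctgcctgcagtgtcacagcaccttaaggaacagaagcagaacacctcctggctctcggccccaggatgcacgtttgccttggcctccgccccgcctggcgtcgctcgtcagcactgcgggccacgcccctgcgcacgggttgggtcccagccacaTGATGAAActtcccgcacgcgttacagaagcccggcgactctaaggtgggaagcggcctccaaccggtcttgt
Chac1: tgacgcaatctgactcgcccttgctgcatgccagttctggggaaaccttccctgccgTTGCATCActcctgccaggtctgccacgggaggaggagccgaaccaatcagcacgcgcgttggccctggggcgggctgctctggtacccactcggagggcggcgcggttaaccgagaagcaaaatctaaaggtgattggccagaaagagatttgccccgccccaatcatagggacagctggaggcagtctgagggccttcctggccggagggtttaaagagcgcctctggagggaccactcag
Atf3: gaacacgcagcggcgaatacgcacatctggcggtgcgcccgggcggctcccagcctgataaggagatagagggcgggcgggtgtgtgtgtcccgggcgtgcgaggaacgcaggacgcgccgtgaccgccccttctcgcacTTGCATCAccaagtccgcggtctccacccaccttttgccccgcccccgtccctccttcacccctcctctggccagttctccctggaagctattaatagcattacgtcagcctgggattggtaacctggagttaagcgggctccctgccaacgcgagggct
Trib3: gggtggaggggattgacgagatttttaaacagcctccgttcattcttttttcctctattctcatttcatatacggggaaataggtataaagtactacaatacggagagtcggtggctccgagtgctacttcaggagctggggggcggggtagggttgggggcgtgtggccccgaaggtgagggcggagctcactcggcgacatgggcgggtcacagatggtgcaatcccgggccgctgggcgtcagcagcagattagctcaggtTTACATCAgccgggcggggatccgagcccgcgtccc
The Asns window is chr6:7693160-7693459 (minus strand), with the match at bases -23 to -16 counted from the start site. The Chac1 window is chr2:119350992-119351291 (plus strand), with the reverse complement of the element at -193 to -186. In Atf3, chr1:191183284-191183583 (minus strand), it lay at -110 to -103 in the same reverse orientation. In Trib3, chr2:152344011-152344310 (minus strand), it lay at 15 to 22 after the start, also reversed. The palindromic cyclic AMP element TGACGTCA occurred in 1 window, that of Ppp1r15a, against 2.93% of windows of tested genes. Of the octamers known to be bound by capicua, TGAATGAA occurred in 1 window, the one of Psat1 at chr19:15924573-15924872, against 0.894%, and TGAATGGA in 0 of the 9 genes, against 0.645%. A match is a description of these letters and was not set against binding data.

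In Cic-L-/- liver 1 of the 10 genes rose and 1 fell. Asns, which makes asparagine, rose 2.74-fold, and Chac1, which degrades glutathione, fell 4.28-fold. Of the 10 genes 7 were bright enough to test, and 5 of these did not pass. A gene was called where limma's adjusted p lay below 0.05, which held for 7.39% of all 8255 features tested. Upward calls in Cic-L-/- made up 4.49% of features and downward calls 2.9%, so 1 gene of 7 in each direction is no more than a count. The median log2 difference of the 7 was -0.01, against 0.00 over all features, and 3 of the 7 were positive. All values below are log2 signal after background correction and quantile normalisation unless another scale is named, and differences are Cic-L-/- minus wildtype.

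**Figure D1:**
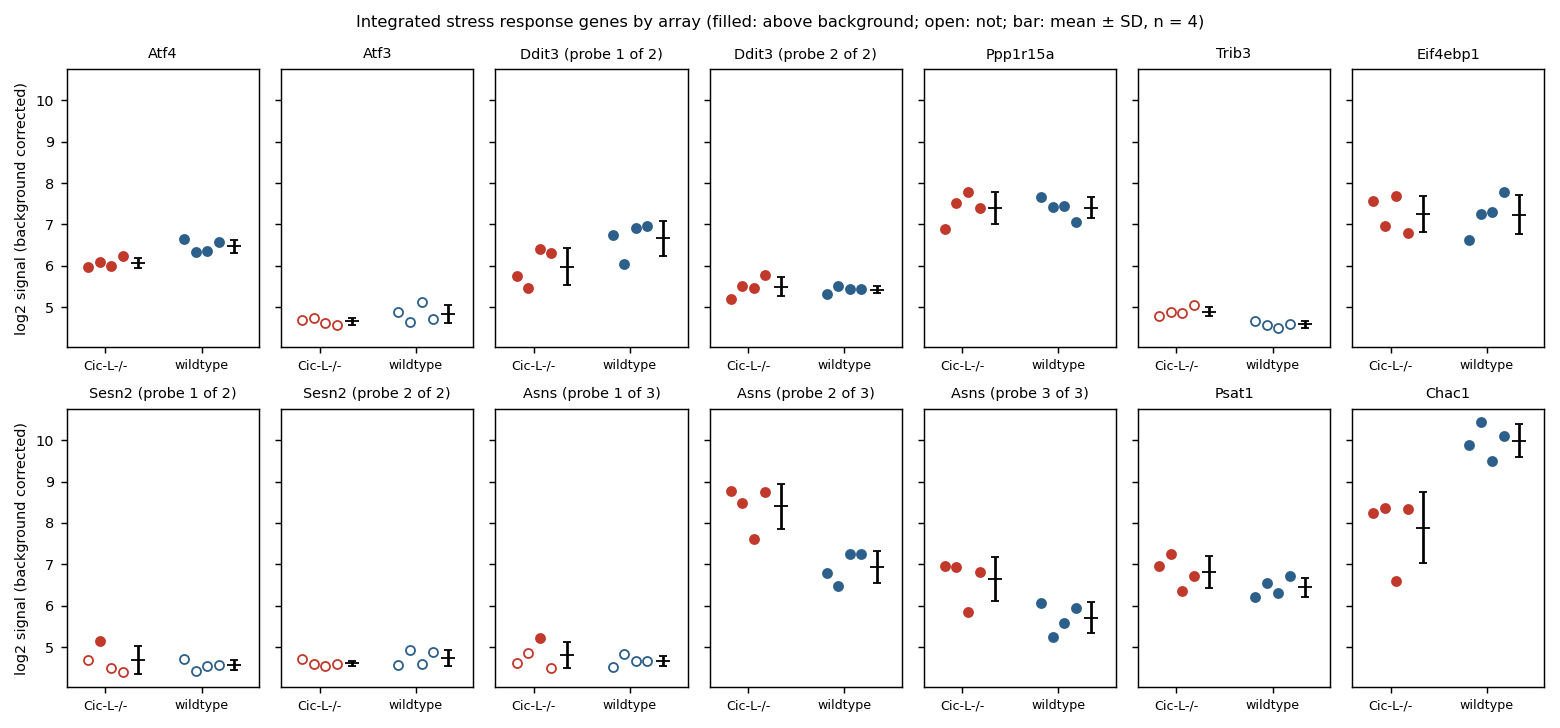
Log2 signal of the 14 probes of the 10 genes on each array, Cic-L-/- left and wildtype right, with the mean and SD of 4 arrays beside each group; filled points were above background and open points were not. Asns probe 2 lies higher and Chac1 lower on all 4 Cic-L-/- arrays than on any wildtype array, while Atf3, Trib3 and the Sesn2 probes lie near the floor.

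None of the transcription factors passed the test. The single probe of Atf4 itself gave 5.97, 6.09, 6.00 and 6.25 in Cic-L-/- replicates 1 to 4, against 6.64, 6.33, 6.36 and 6.57 in wildtype replicates 1 to 4. The groups did not overlap, as was the case for 15.1% of all features. The difference was -0.40 ± 0.14 (SE), with a 95% interval of -0.71 to -0.08 that is not adjusted for the number of features, and it did not pass (adjusted p = 0.127). Its sign was the same under all 15 alternatives, and it passed under 0 of them. On the unnormalised signal scale the groups did overlap, at 186.6 to 204.5 in Cic-L-/- and 170.3 to 208.3 in wildtype. Background was brighter in the mutant: the control rows had a median signal of 138.5 to 141.9 on Cic-L-/- arrays and of 114.2 to 136.3 on wildtype arrays.

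Ddit3 encodes CHOP, the factor that ATF4 induces under prolonged stress, and its 2 probes disagreed. The brighter probe gave 5.75, 5.47, 6.40 and 6.32 in Cic-L-/- liver, against 6.74, 6.03, 6.91 and 6.96 in wildtype liver, so that the groups overlapped. The difference was -0.68 ± 0.26 (SE, adjusted p = 0.142). The dimmer probe averaged 5.49 ± 0.23 on the 4 mutant arrays and 5.42 ± 0.08 on the 4 wildtype arrays (SD), a difference of 0.07 (adjusted p = 0.848 over every kept probe). The RefSeq accession given for both probes is the same, and their places on the transcript are not known here. Atf3, a stress-induced repressor of the same bZIP class, was not above background on any of the 8 arrays. Its probe gave 4.58 to 4.75 in Cic-L-/- liver and 4.64 to 5.11 in wildtype liver, and the difference of -0.18 did not pass over every probe (adjusted p = 0.643).

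Of the genes for feedback and translational control, Ppp1r15a and Eif4ebp1 had almost equal means. Ppp1r15a encodes GADD34, the phosphatase subunit that reverses eIF2 phosphorylation. It gave 6.88, 7.52, 7.79 and 7.39 in Cic-L-/- liver, against 7.67, 7.43, 7.45 and 7.07 in wildtype liver. Its difference was -0.01, with a 95% interval of -0.46 to 0.44 (adjusted p = 0.987). Eif4ebp1, an inhibitor of cap-dependent initiation, gave 7.56, 6.95, 7.69 and 6.79 in Cic-L-/- liver, against 6.62, 7.24, 7.29 and 7.79 in wildtype liver. The groups overlapped over most of their ranges. The difference was 0.01, with an interval of -0.57 to 0.59 (adjusted p = 0.984). These intervals are not adjusted for the number of features, and changes of a size within them remain compatible with the 4 arrays a group.

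Trib3, a pseudokinase that restrains ATF4 activity, was not above background on any array. Its probe nevertheless gave 4.79, 4.88, 4.87 and 5.04 on Cic-L-/- arrays, against 4.68, 4.57, 4.50 and 4.59 on wildtype arrays, without overlap. The difference was 0.31 ± 0.10 (SE) and did not pass over every probe (adjusted p = 0.187, with 1.88% of 25697 probes called, 1.1% higher and 0.778% lower). The detection p of this probe, the share of control rows at least as bright, was 0.0721 to 0.175 on Cic-L-/- arrays and 0.327 to 0.685 on wildtype arrays. Its raw signal was 149.1 to 158.4 on Cic-L-/- arrays and 113.5 to 131.7 on wildtype arrays, and the control rows were brighter on Cic-L-/- arrays too, as given above. Sesn2, a sestrin that restrains mTORC1 when leucine is short, has 2 probes. The first exceeded background on 1 array in all, that of Cic-L-/- replicate 2, with a difference of 0.12. The second was above background on 0 of the 8 arrays, with a difference of -0.14, and neither passed (adjusted p = 0.864 and 0.743 over every probe).

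The enzymes held both changes. Asns, asparagine synthetase, is the classical amino acid response gene. Its brightest probe gave 8.76, 8.48, 7.60 and 8.75 in Cic-L-/- replicates 1 to 4, against 6.79, 6.47, 7.25 and 7.26 in wildtype replicates 1 to 4. All 4 Cic-L-/- values lay above all 4 wildtype values, with replicate 3 nearest to wildtype. Over all features 15.1% had no overlap in either direction. The mean was 8.40 ± 0.55 in Cic-L-/- and 6.94 ± 0.38 in wildtype (SD, n = 4). They differed by 1.46 ± 0.27 (SE), with an adjusted p of 0.00851. In absolute size this difference ranked at the 99.1 percentile of all features. The call held under all 15 alternatives, with adjusted p from 0.00157 to 0.0333.

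The other Asns probes were dimmer. The third gave 6.96, 6.93, 5.84 and 6.82 in Cic-L-/- liver, against 6.06, 5.24, 5.59 and 5.95 in wildtype liver. Replicate 3 lay within the wildtype range and the other Cic-L-/- arrays lay above it. The difference of 0.92 ± 0.27 (SE) did not pass over every kept probe (adjusted p = 0.0644, with 6.2% of 10300 kept probes called). The first exceeded background on 1 array in all, that of Cic-L-/- replicate 3, and its difference of 0.13 has no direction to be read at that level. The Asns rise thus passed at 1 of the 2 probes above background, and the sign was positive at both.

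Psat1, phosphoserine aminotransferase of the serine synthesis pathway, gave 6.97, 7.26, 6.35 and 6.72 in Cic-L-/- liver, against 6.21, 6.55, 6.31 and 6.72 in wildtype liver. Replicates 1 and 2 lay above every wildtype array, replicate 4 was level with the highest wildtype array to 2 decimals, and replicate 3 lay within the wildtype range. The difference was 0.38, with a 95% interval of -0.07 to 0.82, and did not pass (adjusted p = 0.305).

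Chac1 encodes a gamma-glutamylcyclotransferase that cleaves glutathione in the cytosol. Its single probe gave 8.23, 8.36, 6.60 and 8.34 in Cic-L-/- replicates 1 to 4, against 9.88, 10.44, 9.49 and 10.11 in wildtype replicates 1 to 4. The groups were separated by more than 1 log2 unit, and Cic-L-/- replicate 3 was the lowest by far. The mean was 7.88 ± 0.86 in Cic-L-/- and 9.98 ± 0.40 in wildtype (SD, n = 4). They differed by -2.10 ± 0.36 (SE), with an adjusted p of 0.00599, at the 99.5 percentile in absolute size. Without Cic-L-/- replicate 3 the difference was -1.67 (adjusted p = 0.0018). The call held under all 15 alternatives, with adjusted p from 8.23e-04 to 0.0201. On the raw signal scale Chac1 was 220.4 to 520.4 in Cic-L-/- liver and 823.6 to 1335.3 in wildtype liver.

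Cic-L-/- replicate 3 was the lowest of the 4 mutant arrays for Asns, which rose, for Chac1, which fell, and for Psat1, which did not pass. Its values relative to the wildtype mean were 0.66 for Asns, -0.10 for Psat1 and -3.38 for Chac1. In replicates 1, 2 and 4 these ran from 1.54 to 1.82 for Asns, from 0.27 to 0.81 for Psat1 and from -1.75 to -1.62 for Chac1. For Ppp1r15a, Eif4ebp1 and the brighter Ddit3 probe, replicate 3 was the highest mutant array instead. Without it, the Asns difference was 1.72 (adjusted p = 0.00157) and the Psat1 difference 0.54 (adjusted p = 0.133).

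In the authors' normalised table, which has no background correction, Asns and Chac1 passed as well, with smaller differences. Asns probe 2 averaged 8.84 ± 0.39 in the mutant and 7.91 ± 0.19 in the wildtype (SD, n = 4), a difference of 0.93 (adjusted p = 0.0122 over every probe, with 2.85% called). Chac1 averaged 8.51 ± 0.51 in the mutant and 10.14 ± 0.36 in the wildtype, a difference of -1.64 (adjusted p = 0.00347). Atf4 differed by -0.16, the brighter Ddit3 probe by -0.28 and Trib3 by 0.12, none of which passed (adjusted p from 0.222 to 0.332).

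**Figure D2:**
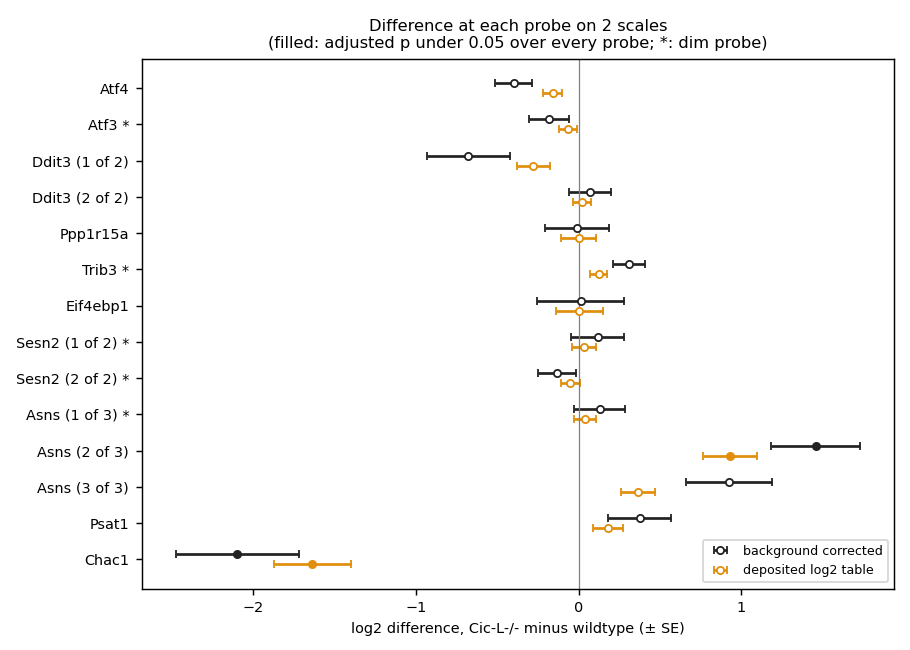
Log2 difference, Cic-L-/- minus wildtype, with its standard error at each of the 14 probes, after background correction and in the authors' normalised table; filled points had an adjusted p under 0.05 over every probe. Only Asns probe 2 and Chac1 are filled, on both scales, with 1.46 and -2.10 after background correction and 0.93 and -1.64 in the authors' table.

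Genes with the profile nearest to each changed gene were found by the root mean square difference over the 8 arrays, with each profile set to 0 at its wildtype mean. Their likeness to that gene, in difference and by replicate, follows from this choice and is no separate result. For Asns these were Fcmr (0.236), Slpi (0.320) and S100a9 (0.343), against a size of the Asns profile of 1.11 by the same measure. Fcmr encodes a receptor for IgM, Slpi a secreted protease inhibitor and S100a9 a calprotectin subunit of neutrophils. Their log2 differences were 1.58, 1.39 and 1.19, and in Fcmr, Slpi and S100a9, as in Asns, replicate 3 was the lowest mutant array. Without background correction Fcmr differed by 0.77 and Slpi by 0.61, and both were still called. For Chac1 they were Gadd45g (0.513), a growth arrest gene, Fn3k (0.518), a fructosamine kinase, and Cish (0.526), a cytokine feedback inhibitor, against a Chac1 profile size of 1.59. Their log2 differences were -2.34, -1.58 and -2.15, with -0.65 for Fn3k without background correction. Replicate 3 was the lowest mutant array for Gadd45g and Fn3k, and replicate 1 for Cish.

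**Figure D3:**
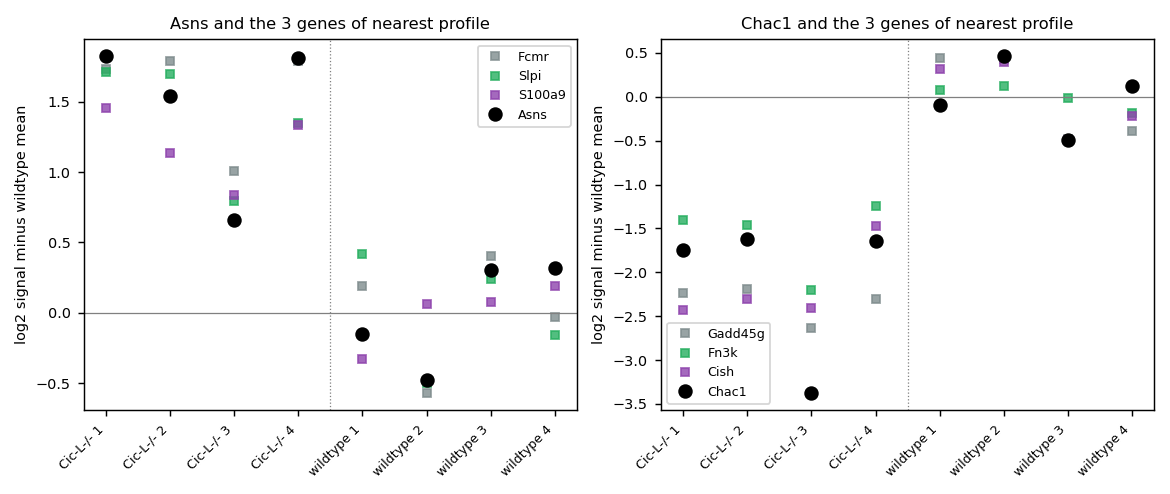
Log2 signal minus the wildtype mean on each array for Asns (left) and Chac1 (right), in black, with the 3 genes of nearest profile; the dotted line separates Cic-L-/- arrays from wildtype arrays. Cic-L-/- replicate 3 stands at 0.66 for Asns and at -3.38 for Chac1, below the other mutant arrays in both panels.

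Some markers of other liver and blood cells rose too, where 4.49% of all features were called higher and 50.4% had a positive sign. Of 6 tested neutrophil markers 3 rose (S100a8, Ltf and S100a9, named above for its profile), and all 6 had a positive sign. Their summed level was 11.76 to 12.31 in Cic-L-/- liver and 11.06 to 11.37 in wildtype liver. Of 5 tested Kupffer cell markers Marco and Adgre1 rose. Clec4f (0.25), Vsig4 (0.54) and C1qa (0.72) did not pass (adjusted p from 0.185 to 0.308). The summed level of the 5 was 12.267, 12.41, 11.395 and 11.394 in Cic-L-/- replicates 1 to 4 and 11.02 to 11.25 in wildtype liver. Of 4 tested lymphocyte markers Cd79a rose. The summed level of the 4 was 8.87, 8.83, 8.18 and 8.21 in Cic-L-/- replicates 1 to 4 and 7.81 to 8.14 in wildtype liver. For both cell types replicates 1 and 2 were thus the higher mutant arrays. Of 6 tested hepatocyte markers 0 passed in limma's test (2 at an unadjusted p under 0.05, adjusted p from 0.089 to 0.988), with a summed level of 16.21 to 16.41 in Cic-L-/- liver and 16.11 to 16.26 in wildtype liver. Apoa1 and Ttr were bright and the Alb probe was dim. By the same test 0 of 3 erythroid, 0 of 6 endothelial and 0 of 4 stellate cell and fibroblast markers passed (0, 2 and 1 at an unadjusted p under 0.05), and none of the 3 cholangiocyte markers on the array (of 5 listed) was bright enough to test. Several of these marker calls ended when 1 array was left out. This held for Adgre1 without mutant replicate 1 (adjusted p = 0.0526), and for S100a8 without replicate 1 or 2 of either group (highest adjusted p = 0.0849). Marco was not called without mutant replicate 1 or 2 or any of wildtype replicates 2, 3 and 4 (highest adjusted p = 0.0731), nor without background correction (1.26). Cd79a was called on leaving out mutant replicate 3 or wildtype replicate 4 and in none of the other 6 cases (highest adjusted p = 0.101), and differed by 0.32 without background correction (adjusted p = 0.0647). Ltf and S100a9 stayed called under all 15 alternatives. The part of these cells in the Asns result was not tested. In bulk tissue, more cells of a type and more RNA per cell cannot be told apart.

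Among other genes known as ATF4 targets and the cytosolic aminoacyl-tRNA synthetases, only some of which ATF4 raises, 6 fell and 1 rose. Over 4 lists (amino acid synthesis, amino acid transport, cytosolic aminoacyl-tRNA synthetases, and stress regulators with secreted factors), 38 of 55 genes were tested and 31 did not pass. That is 18.4% called, against 7.39% of all features, in lists chosen with earlier results of these data known. The median difference was -0.23 and 31 of the 38 had a negative sign, where 50.4% of all features were positive. Synthetases made up 15 of the 38 and 14 of the 31 negative signs, so these are not figures for ATF4 targets alone. With median centring in place of quantile normalisation, which moved the median of all features to 0.165, 22 of the 38 were negative and their median was -0.22 relative to that of all features. Under that scaling 83.6% of all calls were higher in Cic-L-/-, where the quantile scale gave 60.8%.

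In amino acid synthesis and one-carbon metabolism 2 of 6 tested genes fell and 0 rose, where 2.9% of all features fell. Gpt2, the mitochondrial alanine aminotransferase, was 7.89 to 8.46 in Cic-L-/- liver and 9.59 to 10.35 in wildtype liver, a difference of -1.78 ± 0.19 (SE, adjusted p = 2.17e-04). Its groups lay more than 1 log2 unit apart. Cbs, which starts transsulfuration towards cysteine, differed by -0.51 (adjusted p = 0.0472), a result no longer called with any 1 array left out (highest adjusted p = 0.129), with median centring (0.152) or with every kept probe on its own (0.0575). Phgdh and Aldh18a1, which start serine and proline synthesis, differed by -0.37 and 0.45 and did not pass.

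Of the amino acid transporters 2 of 4 tested fell, against 2.9% of all features. The glycine transporter Slc6a9 was 5.03 to 6.17 in Cic-L-/- liver, where it was above background on 3 arrays, and 7.14 to 7.61 in wildtype liver, a difference of -1.57 ± 0.23 (SE, adjusted p = 0.00245). Slc38a2, the amino acid-responsive neutral transporter SNAT2, was 9.92 to 10.51 in Cic-L-/- liver and 10.97 to 11.58 in wildtype liver, a difference of -1.05 ± 0.19 (adjusted p = 0.00749). Neither pair of ranges overlapped, as was the case for 15.1% of all features. Without background correction the Slc6a9 difference was -0.68 and was still called (adjusted p = 0.00163). Slc1a4 and Slc7a5 differed by 0.40 and 0.14 and did not pass.

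Of 15 tested aminoacyl-tRNA synthetases, enzymes that charge tRNAs and some of which ATF4 raises, Sars fell (-0.73, adjusted p = 0.0393) and 14 did not pass. Of all features 7.39% were called and 2.9% fell. The Sars call was lost on leaving out any of replicates 1, 2 and 3 of the mutant or of the wildtype (highest adjusted p = 0.105). It was also lost without background correction (-0.29), without the detection filter and with median centring (highest adjusted p = 0.175). A negative sign was seen for 14 of the 15 and, with median centring, for 7. Wars (-0.52), Aars (-0.46) and Farsb (-0.32) followed (adjusted p from 0.0691 to 0.226).

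Of 13 tested stress regulators and secreted factors, Vldlr, the very low density lipoprotein receptor, rose and Cebpb fell. Among all features 4.49% rose and 2.9% fell. Vldlr was 10.49 to 10.84 in Cic-L-/- liver and 8.04 to 8.81 in wildtype liver, a difference of 2.35 ± 0.19 (SE, adjusted p = 2.62e-05). The groups were well apart. Cebpb, a partner of ATF4 at its element, differed by -0.85 (adjusted p = 0.017) and was not called on leaving out wildtype replicate 1 (adjusted p = 0.051). Stc2 (-0.63, adjusted p = 0.0652) and the hormone Fgf21 (0.75, adjusted p = 0.179) did not pass.

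**Figure D4:**
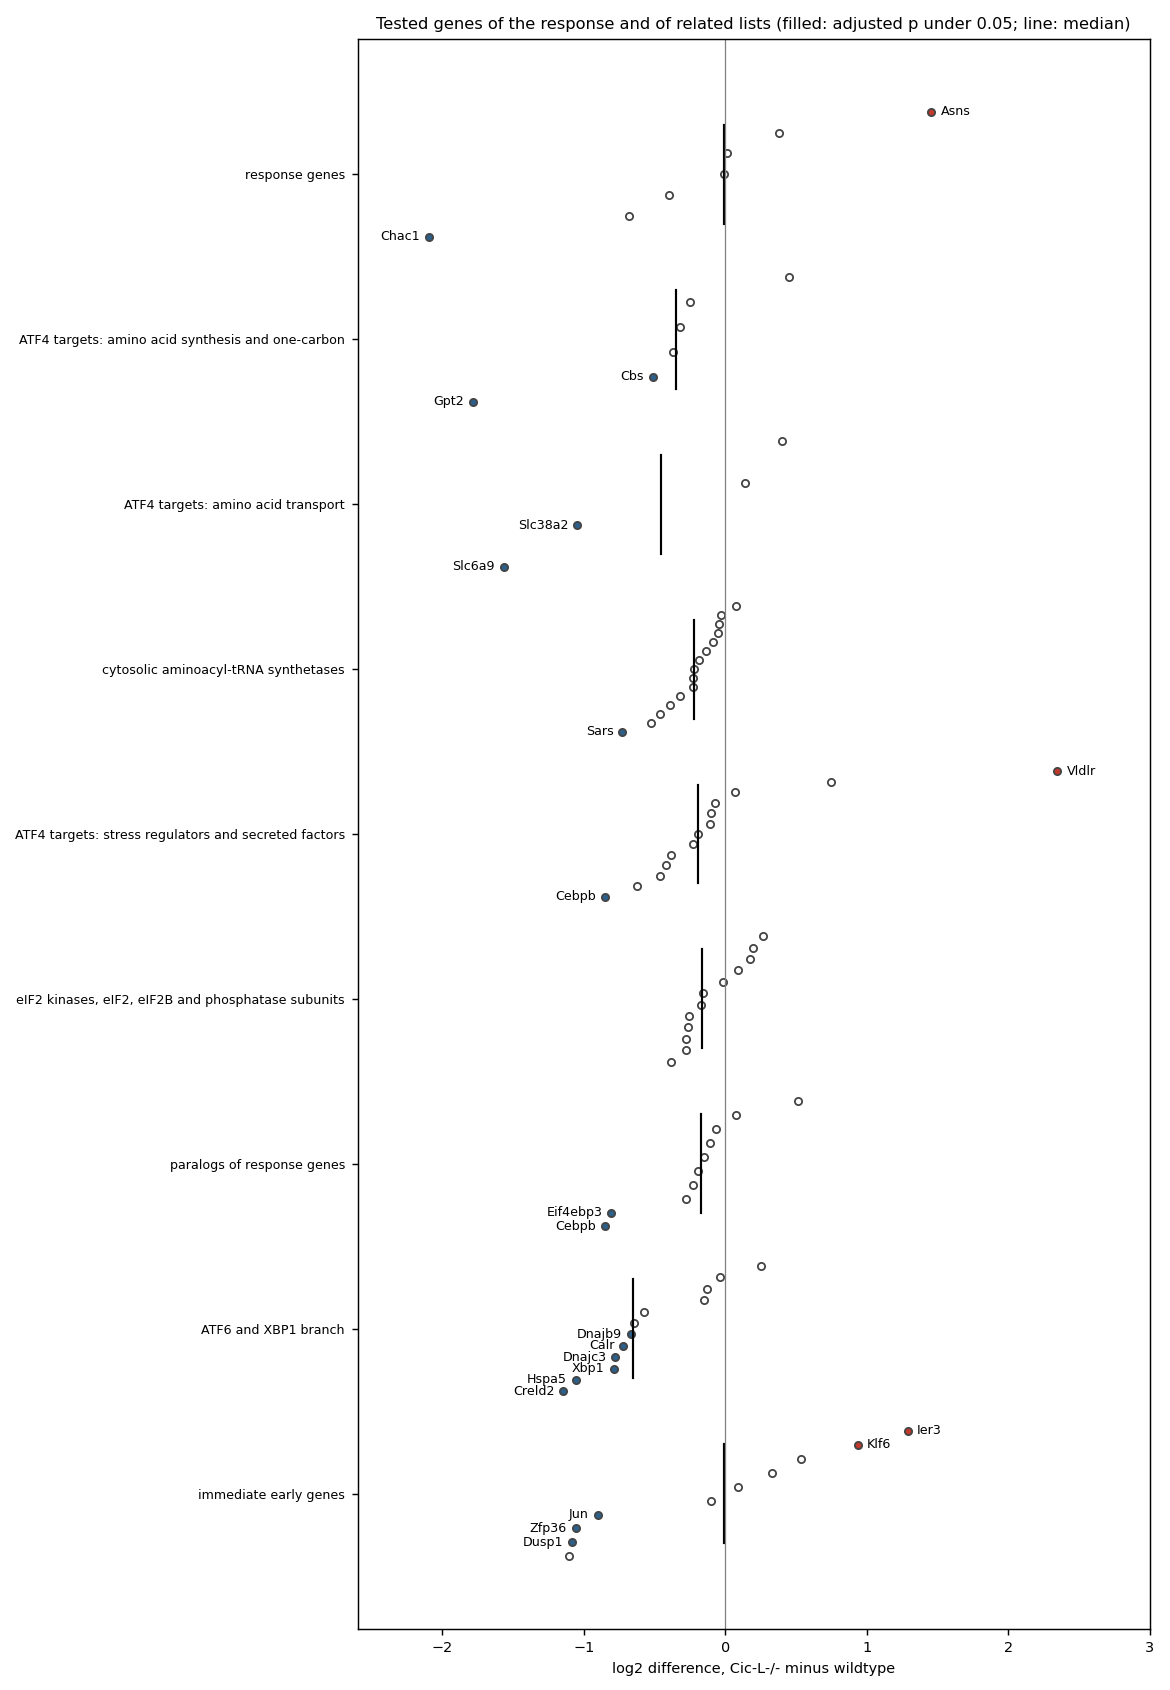
Log2 difference, Cic-L-/- minus wildtype, of each tested gene among the response genes and in related lists; filled points passed at an adjusted p under 0.05, red higher and blue lower in Cic-L-/-, and the vertical line is the list's median. Asns (1.46) and Vldlr (2.35) stand to the right in their lists while Chac1 (-2.10), Gpt2 (-1.78) and Slc6a9 (-1.57) stand to the left.

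Of the machinery that sets eIF2 phosphorylation, 12 genes for kinases, eIF2, eIF2B and phosphatase subunits were tested. In limma's test 0 passed, also at an unadjusted p under 0.05, and differences ran from -0.39 to 0.26. The smallest adjusted p was that of Eif2b5, a subunit of the eIF2B exchange factor (-0.27, adjusted p = 0.262). Eif2b2 (-0.25), Ppp1ca (0.26) and Eif2s2 (-0.28) followed. mRNA levels do not measure phosphorylation of eIF2.

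Among 10 tested paralogs of the 10 genes, Cebpb, described above, and Eif4ebp3, a further inhibitor of initiation, fell. Downward calls made up 2.9% of all features. Eif4ebp3 exceeded background on all 4 wildtype arrays and on 1 of 4 mutant arrays, so its fitted difference of -0.81 (adjusted p = 0.0335) is taken against mutant values that mostly lie near the floor. The call was lost on leaving out mutant replicate 1, 2 or 4, or wildtype replicate 2 or 4. Without background correction the difference was -0.24 and with an offset of 50 it was -0.43, and the highest adjusted p over its alternatives was 0.106. Eif4ebp2 differed by 0.51 and Ppp1r15b by -0.28, and neither passed (adjusted p = 0.203 and 0.5).

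In the other branches of endoplasmic reticulum stress, 6 of 12 tested genes fell and 0 rose, where 2.9% of all features fell. Under the other settings that kept all arrays 4 to 7 fell, with 4 under median centring and without the detection filter. The median was -0.66, with 11 negative signs (9 with median centring). Hspa5, the chaperone BiP, was 5.59 to 6.15 in Cic-L-/- liver and 6.83 to 7.36 in wildtype liver, a difference of -1.06 (adjusted p = 0.00524), and without background correction it differed by -0.47 (adjusted p = 0.00729). Xbp1, the branch's transcription factor, differed by -0.79 (adjusted p = 0.00675) and Dnajc3, an inhibitor of eIF2 kinases, by -0.78 (adjusted p = 0.00741). Dnajb9 differed by -0.67 (adjusted p = 0.0192) and was not called on leaving out mutant replicate 2 or 3 or wildtype replicate 1, and with median centring (highest adjusted p = 0.0882). Creld2 (-1.15, adjusted p = 0.0316) and Calr (-0.72, adjusted p = 0.0407), named after their values were seen, also fell. Leaving out 1 array ended the Creld2 call in 4 of 8 cases and the Calr call in 7 of 8 (highest adjusted p = 0.0859 and 0.102). Without the detection filter neither was called (adjusted p = 0.0671 for Creld2 and 0.0634 for Calr), and with median centring Calr was not (adjusted p = 0.141).

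Immediate early genes, which like Atf3 and Ppp1r15a are induced rapidly, moved in both directions. Of 10 tested, Klf6 (0.94, adjusted p = 0.0051) and Ier3 (1.29, adjusted p = 0.00777) rose. Without background correction Klf6 differed by 0.48 and Ier3 by 0.55, and both were still called. Zfp36 (-1.06, adjusted p = 0.00133), Dusp1 (-1.08, adjusted p = 0.0225) and Jun (-0.90, adjusted p = 0.039) fell, and 5 did not pass. Over all features 4.49% rose and 2.9% fell. Dusp1 was no longer called on leaving out replicate 1 of either group or wildtype replicate 2 (highest adjusted p = 0.0713). Jun was no longer called on leaving out replicate 1, 2 or 3 of the mutant, or 1, 2 or 4 of the wildtype (highest adjusted p = 0.102). It was also lost without background correction (-0.32), without the detection filter and with median centring.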

How the data were processed

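Per the labels' protocols, RNA was isolated on spin columns and labelled with Cy3 by the array maker's standard protocol. The authors deposited 1 table of unnormalised probe intensity on a linear scale. The deposited normalised table holds log2 values. They equalled quantile-normalised log2 of the signal to within 5.0e-05, with no background correction, and the deposited series matrix was equal to that table.

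From the intensity values, background was corrected with normexp (limma 3.58.1 under R 4.3.3, offset 16) on 1124 rows without a probe ID, taken as negative controls from their values, followed by quantile normalisation. A probe was kept where 4 or more arrays had a detection p (the share of control rows at least as bright) under 0.05, which left 10300 probes, and each gene was represented by its brightest kept probe (8255 features). Groups were compared with limma (lmFit and eBayes, two-sided), adjusted by Benjamini-Hochberg over all features. Tested on simulated data with 200 of 8255 features changed, the fit recovered 74% of changes of 1 log2 unit and 98% of changes of 2, with 11 and 9 false calls. The simulated noise was normal and independent between features, so these shares need not carry over to the real arrays. Dim probes take their values from a fit over all 25697 probes. The offset makes log2 differences of dim probes too small. The number of arrays limits the precision.

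The 10 genes and the lists were chosen with earlier results of these data known. Lists are described by counts and medians, with no set test. Genes named were all 10 genes, from each list the 4 smallest adjusted p and every called gene where 5 or fewer were called, and the 3 nearest profiles of each called gene among the 10. Same-numbered samples of the groups are not said to be paired.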

Additional observations from a re-analysis of the deposited data

Results flagged for a closer look

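In 5 of 92 groups of 4 values examined (the 14 probes and the named genes of related lists, in each genotype), 1 array stood apart by Dixon's criterion, and chance gives about 1 in 20. In Cic-L-/- replicate 3, Chac1 was 6.60 while the other mutant arrays were 8.23 to 8.36, and the third Asns probe was 5.84 while the others were 6.82 to 6.96. Hspa5 was 5.59 in Cic-L-/- replicate 4, against 6.07 to 6.15 in the other mutant arrays. In wildtype replicate 2, Eif4ebp3 was 6.23, against 5.44 to 5.52 in the other wildtype arrays, and Klf6 was 6.25, against 6.56 to 6.59.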

How the results depend on the processing

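The 15 alternatives were no background correction, median centring, no detection filter, every kept probe on its own, a normexp offset of 50, a variance trend, the replicate number as a block, and leaving out each of the 8 arrays. Asns and Chac1 stayed called with the same sign under all 15. Of 105 values for the 7 tested genes, 104 kept their side of the threshold, and 1 did not: with the replicate block, Ddit3 passed (-0.68, adjusted p = 0.0431), so that 3 of the 10 genes were called in place of 2. The labels do not tie equal numbers together, and deviations of same-numbered samples correlated at -0.0316 to 0.0504 over all features, so the numbers were not taken as pairs. The block gave 468 called features in place of 610 and 15 called genes of the related lists in place of 19. Leaving out 1 array gave 326 to 628 called features and 12 to 18 called genes of the related lists, with 2 of the 10 genes called each time. Called features were 326 and 349 without mutant replicates 1 and 2, and 388, 398 and 396 without wildtype replicates 1, 2 and 4. The fewest list genes, 12, were called on leaving out mutant replicate 1, mutant replicate 2 or wildtype replicate 1. Of 675 values for 45 other genes named here, 591 kept their side of the threshold, 82 lost a call and 2 gained one, and in 0 of these 675 or of the 105 did a called value change sign. Signal near background limits what can be said of Atf3, Trib3 and Sesn2.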
